A study of Mus musculus with 2 samples.

Results

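The genes described here are 10 genes of the mouse immune system that read antibodies and related signals at the cell surface: the Fc gamma receptors Fcgr1, Fcgr2b, Fcgr3 and Fcgr4, the Fc epsilon receptor alpha chain Fcer1a, the adaptors Fcer1g and Tyrobp, the receptors Trem1 and Trem2, and the kinase Syk. They were taken by symbol from the 24346 genes of a bulk mRNA sequencing comparison, and all 10 were listed in both libraries. The comparison held 2 libraries, 1 per genotype, from dorsal skin wounds of C57BL/6J neonates that were wounded at 1 day of age and harvested 24 h later. One genotype was WT and the other PU.1-/- (PU.1_KO in the labels), in which Spi1, the gene of the myeloid and lymphoid transcription factor PU.1, is inactivated. The line is described as without macrophages, neutrophils, mast cells or T cells, so the libraries differ in the cells present as well as in the gene. The methods describe 1-cm full-thickness incisions, whereas the design text speaks of excisions, and how many pups went into a library is not given in the sources used here. Values are FPKM, the fragments of a gene scaled to the length of its transcript and to the depth of the library, so that levels of different genes can be set side by side, and where a pair of values is given the WT value comes first. With 1 library per genotype there is no spread between animals and no p-value. Each 95% interval below covers counting error only, and was made from read numbers estimated from the FPKM and the transcript length. The estimated depth was 1.37e+07 reads for WT and 1.58e+07 reads for PU.1-/-.

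Fc receptors bind the constant part of antibodies. The activating receptors have hardly any signalling part of their own and pair in the membrane with a small adaptor, FcRgamma (encoded by Fcer1g), while Trem1 and Trem2 pair with another, DAP12 (encoded by Tyrobp). Both adaptors carry an immunoreceptor tyrosine-based activation motif (ITAM), in which a pair of tyrosines becomes phosphorylated by Src family kinases and then holds the kinase Syk. Fcgr2b works the other way, since its tail carries an inhibitory motif (ITIM) that recruits phosphatases. In skin most of these genes are known mainly from macrophages, neutrophils and mast cells, which take up antibody-coated or damaged material and release mediators.

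The coding stretches of these motifs are shown because they are what makes the adaptors and Fcgr2b signal in opposite directions. They were read from GENCODE transcripts on mm10 (GRCm38), and capitals mark the tyrosine codons of the motif. The Fcer1g stretch covers codons 62 to 82 of 86 and lies in exons 4 and 5 on the minus strand (chr1:171229880-171230081, intron included). The Tyrobp stretch covers codons 89 to 109 of 114 in exons 4 and 5 on the plus strand (chr7:30415661-30417391). The Fcgr2b stretch covers codons 309 to 330 of 340 in exons 7 and 8 on the minus strand (chr1:170961047-170961207).
Fcer1g: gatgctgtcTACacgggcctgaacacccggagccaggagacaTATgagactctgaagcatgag
Tyrobp: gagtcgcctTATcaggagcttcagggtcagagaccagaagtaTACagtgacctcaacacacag
Fcgr2b: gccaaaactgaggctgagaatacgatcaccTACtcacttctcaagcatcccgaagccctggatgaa
In both adaptors the tyrosine codons stood 11 codons apart. The ITAM pattern (tyrosine, any 2 codons, leucine or isoleucine, 6 to 12 codons, and the same again) was found in 2 of the 10 genes, Fcer1g and Tyrobp, and in 6.67% of 19858 genes with a coding sequence, so the pattern alone does not define an adaptor.

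Spi1, the targeted gene, had 35.4 FPKM in WT against 1.45 FPKM in PU.1-/- wounds, or 4.12% of the WT level (interval 2.94% to 5.59%). All 10 genes were lower in the PU.1-/- wound by a fold rule under which values below 0.1 FPKM are raised to 0.1 and the WT value has to be at least 2 times the other. Over all genes the same rule called 4.34% lower and 2.32% higher. Every one of the 10 genes had at least 3 FPKM in WT, and of the 10908 genes of that level 3.63% were lower. This limit acts on the WT library alone and was set after the values were seen. Of the genes with at least 1 FPKM in either library, 4.45% were lower. In 9 of the 10 genes the PU.1-/- value was at least 10-fold lower or listed at 0, against 1.88% of these 10908 genes. Listed at 0 in the PU.1-/- library were 6 of the 10, against 0.825%. Their median log2 ratio of PU.1-/- over WT, with the 0.1 FPKM floor, was -6.29, beside -0.01 over the genes of at least 3 FPKM in WT. The floor sets the ratio of the 6 genes listed at 0, and with a floor of 1 FPKM the median was -3.82. In whole tissue, fewer cells of a type and less RNA per cell cannot be told apart, and this holds for every difference below.

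**Figure D1:**
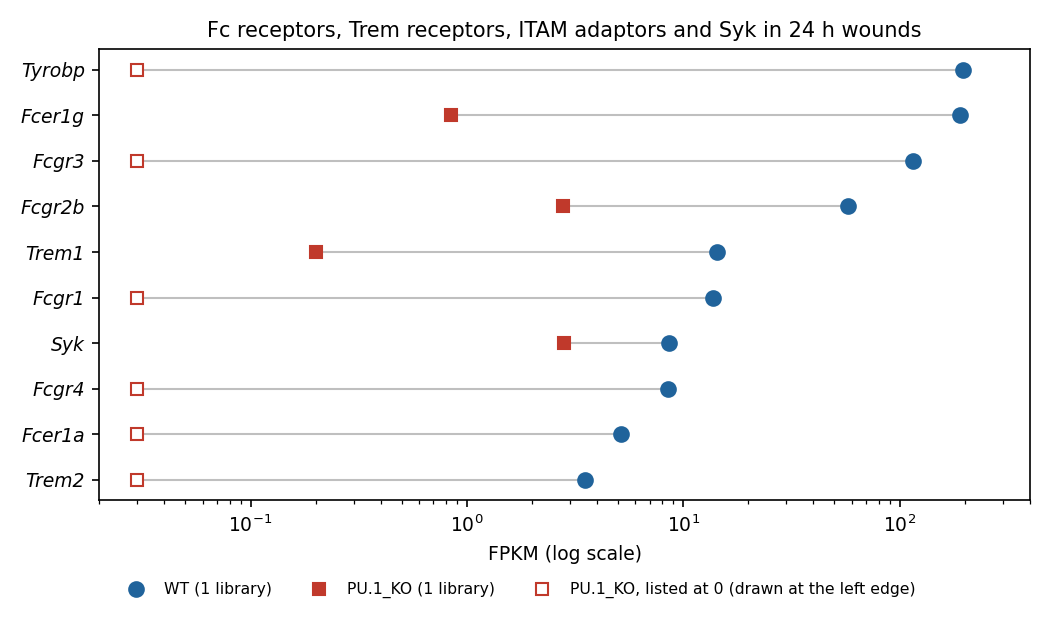
FPKM of the 10 genes (log scale) in the WT library (circles) and the PU.1-/- library (squares), ordered by the WT level, with 1 library per genotype and no error bars. Open squares at the left edge mark the 6 genes listed at 0 in the PU.1-/- library. Syk has the shortest line, from 8.57 to 2.81 FPKM.

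The adaptors were the most abundant of the 10 genes in the WT wound. Tyrobp, on chromosome 7 from 30413782 to 30417582, had 196 FPKM in WT (interval 184 to 209) and was listed at 0 in PU.1-/-. Fcer1g, on chromosome 1 from 171229572 to 171234349, had 190 FPKM in WT (180 to 201) against 0.847 FPKM in PU.1-/-. The WT intervals overlap, so the adaptors did not differ in WT beyond counting error, and only 1.89% and 1.98% of all genes had a higher WT level. Together they made up 63.0% of the summed FPKM of the 10 genes in WT. About 983 reads stood behind the WT value of Tyrobp. In the PU.1-/- library 3 reads, the limit set here for the expected count of a gene listed at 0, would be 0.522 FPKM for this short transcript. For Fcer1g about 1240 reads in WT stood against about 6 in PU.1-/-, which is 0.445% of the WT level (0.154% to 0.920%). The 6 reads make this the least precise of the measured ratios.

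Of the activating Fc gamma receptors, whose binding of IgG-coated material triggers uptake, all 3 were listed at 0 in the PU.1-/- wound. Fcgr3, the low-affinity receptor for IgG complexes (chromosome 1, 171051169 to 171065915), had 116 FPKM in WT (111 to 121). Fcgr1, the high-affinity receptor (chromosome 3, 96282909 to 96293969), had 13.8 FPKM (12.5 to 15.1). Fcgr4, a receptor for IgG2 antibodies (chromosome 1, 171018926 to 171029761), had 8.47 FPKM (7.04 to 10.1). Fcgr3 was thus 8.41 times as abundant as Fcgr1 and 13.7 times as abundant as Fcgr4, and these intervals do not overlap. For the PU.1-/- library, 3 reads would be 0.166 FPKM for Fcgr3, 0.0795 FPKM for Fcgr1 and 0.180 FPKM for Fcgr4. The WT level of Fcer1g was 1.33 times the summed level of these receptors and Fcer1a, the alpha chains among the 10 genes that pair with it (143 FPKM).

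The inhibitory receptor Fcgr2b, which is known from B cells, myeloid cells and some endothelial cells (chromosome 1, 170960558 to 170976071), kept a measurable level. It had 57.9 FPKM in WT (55.7 to 60.1) against 2.79 FPKM in PU.1-/-, 4.82% of the WT level (4.05% to 5.68%), from about 2660 and 147 reads. It was therefore the only Fc gamma receptor with a value above 0 in the PU.1-/- wound. In WT it made up 29.5% of the FPKM of the 4 Fc gamma receptors (28.4% to 30.7%), and Fcgr3 made up 59.1%, so that activating receptors were 2.39 times as abundant as the inhibitory one. Its transcripts are 1462 and 3544 nt long, and with the shorter one the WT read number would be 1004 instead of 2660, so the interval depends on the isoform.

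Fcgr2b and Fcgr3 are close paralogs, and reads of 75 bases cannot always tell them apart. Of all 75-base words in Fcgr2b transcripts, 3.53% occur in transcripts of other genes (Fcgr3, Pou2f2 and Ntrk3), and of those in the Fcgr3 transcript 7.38% occur in Fcgr2b. The other 8 genes shared no such word with any transcript searched. The longest identical run is 129 bases of coding sequence across exons 3 and 4 in both genes, on the minus strand at chr1:170966674-170968081 for Fcgr2b and at chr1:171054167-171057792 for Fcgr3 (introns included), and is printed to show where a read fits both.
Fcgr2b and Fcgr3: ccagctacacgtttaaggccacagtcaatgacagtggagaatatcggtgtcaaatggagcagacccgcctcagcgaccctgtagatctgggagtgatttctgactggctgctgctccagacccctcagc
How the authors' software divided such reads was not tested.

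Fcer1a encodes the IgE-binding chain of the mast cell and basophil receptor, which is completed by a beta chain (Ms4a2) and by Fcer1g. Fcer1a (chromosome 1, 173221269 to 173227232) had 5.14 FPKM in WT (3.88 to 6.67), from about 56 reads, and was listed at 0 in PU.1-/-, where 3 reads would be 0.238 FPKM. Ms4a2 had 0.565 FPKM in WT and was also listed at 0 in PU.1-/-. The chains specific to the IgE receptor were thus far below Fcer1g in the same WT library, and neither was detected in the other. Of 10 mast cell markers 9 were lower, with the protease genes Cpa3 and Cma1 at 150 and 223 FPKM in WT against 0.303 and 0.436 FPKM in PU.1-/-. The summed FPKM of this marker list was 754 in WT and 15.5 in PU.1-/-, and 4 of its genes (Mcpt4, Tpsab1, Mrgprb1 and Mrgprb2) were listed at 0. The part of mast cell number in the Fcer1a difference was not tested.

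Trem1, which amplifies inflammatory signals on neutrophils and monocytes (chromosome 17, 48232713 to 48246927), had 14.4 FPKM in WT (13.2 to 15.7) against 0.200 FPKM in PU.1-/-, 1.39% of the WT level (0.644% to 2.71%), from about 553 and 9 reads. Trem2, a lipid-sensing receptor of macrophages (chromosome 17, 48346401 to 48352276), had 3.50 FPKM in WT (2.54 to 4.72) from about 43 reads and was listed at 0 in PU.1-/-, where 3 reads would be 0.214 FPKM. In WT, Trem1 was 4.11 times as abundant as Trem2, with intervals that do not overlap. The sum of Trem1 and Trem2 was 17.9 FPKM, beside 196 FPKM for their adaptor Tyrobp. Trem1 and Trem2 lie in the same stretch of chromosome 17, and their relatives between them were also lower in PU.1-/-: Trem3 had 4.23 FPKM in WT against 0.150 FPKM in PU.1-/-, and Treml2 had 1.54 and 0.0146 FPKM.

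Syk, the kinase that binds the phosphorylated ITAMs (chromosome 13, 52582610 to 52648792), differed least. It had 8.57 FPKM in WT (7.90 to 9.27) against 2.81 FPKM in PU.1-/-, so that 32.8% of the WT level (28.0% to 38.2%) was left, from about 608 and 229 reads. Of the 3 other genes with a value above 0 in PU.1-/-, Fcgr2b kept most, and the interval of its share does not reach that of Syk. In WT, Syk mRNA was 4.50% as abundant as Fcer1g, whereas in PU.1-/- its level (2.45 to 3.19 FPKM) and that of Fcgr2b (2.35 to 3.28 FPKM) had overlapping intervals and were above the other 8. Syk and Fcgr2b together made up 84.2% of the summed FPKM of the 10 in PU.1-/- (6.64 FPKM, against 614 FPKM in WT).

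In the order of WT levels (Tyrobp, Fcer1g, Fcgr3, Fcgr2b, Trem1, Fcgr1, Syk, Fcgr4, Fcer1a, Trem2), counting intervals overlap between Tyrobp and Fcer1g, Trem1 and Fcgr1, Syk and Fcgr4, and Fcer1a and Trem2, while the other neighbours in the order are apart. Levels spanned 56.0-fold from Tyrobp to Trem2. The genes nearest in both libraries, by Euclidean distance in log2(FPKM + 1) over the 2 libraries, were the mast cell protease genes Tpsb2 (224 and 0.788 FPKM) and Cma1 for Fcer1g, at distances of 0.24 and 0.43. For Tyrobp they were Retnlg (215 FPKM and 0), a neutrophil gene, and the chemokine gene Ccl9 (153 FPKM and 0), at 0.13 and 0.35. For Syk they were Rpph1 (8.31 and 2.78 FPKM), an RNA component of RNase P, and Tlr4 (8.41 and 3.12 FPKM), a receptor for bacterial lipopolysaccharide, at 0.04 and 0.12. With 2 values per gene this is closeness of levels and nothing more.

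Beyond the 10 genes, 119 genes of the surrounding pathway were looked up and 110 were listed. Of these, 54 were lower by the fold rule and none was higher, with a median log2 ratio of -0.98. Among the 54 with at least 3 FPKM in WT, 27 were lower, against the 3.63% background. Over all genes the median was 0. The lists differed in how many of their genes were lower, as the plot of the pathway lists shows.

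**Figure D2:**
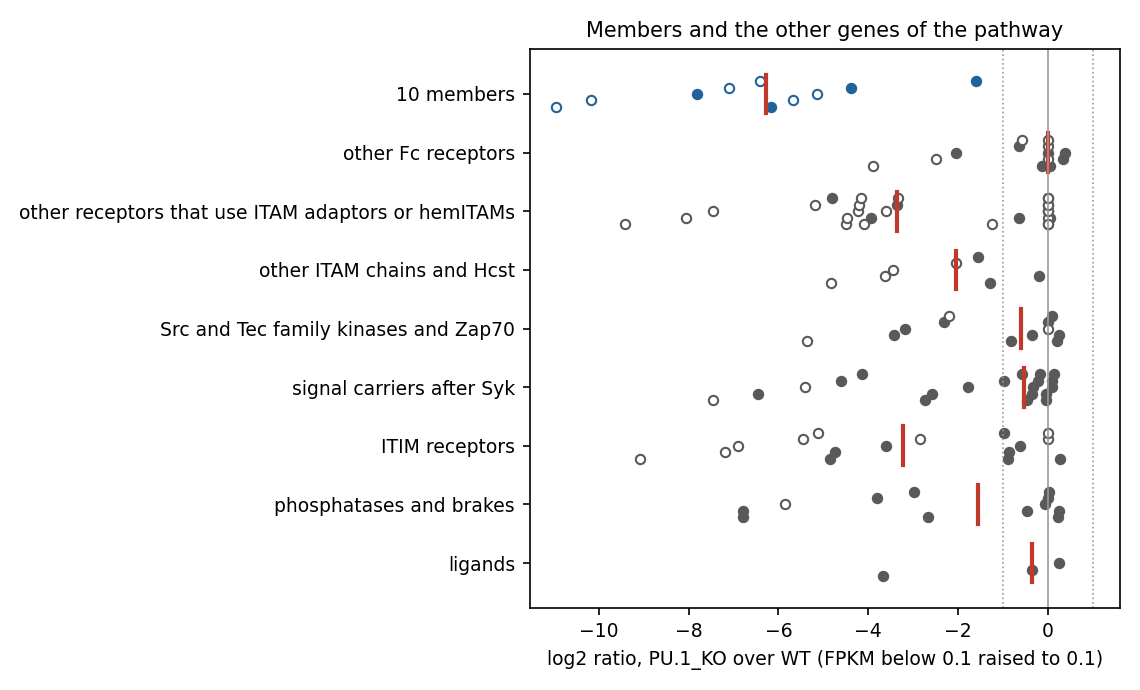
Log2 ratio of PU.1-/- over WT for the 10 genes (top line) and for each list of pathway genes, with FPKM below 0.1 raised to 0.1. Each point is a gene, open points are genes listed at 0 in the PU.1-/- library, red bars are medians and dotted lines mark 2-fold. The medians lie at -6.29 for the 10 genes, -3.36 for the other ITAM-using receptors and -0.52 for the signal carriers.

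Among the other receptors that use ITAM adaptors or carry a hemITAM, 16 of 27 were lower, and all 5 of those with at least 3 FPKM in WT. The C-type lectins Clec4d, Clec4n and Clec4e, which signal through FcRgamma on binding microbial or cell debris glycolipids and sugars, had 67.8, 26.5 and 17.7 FPKM in WT and were each listed at 0 in PU.1-/-. Of the other Fc receptors 3 of 13 were lower, with a median log2 ratio of 0. Only 9 of the 13 reached 0.1 FPKM in a library and 1 reached 3 FPKM in WT. Genes below 0.1 FPKM in both libraries get a ratio of 0 from the floor, so this median says little. Fcgrt, the neonatal Fc receptor, which recycles IgG and uses no ITAM, had 45.0 FPKM in WT against 28.7 FPKM in PU.1-/- and was not called. Of the other ITAM chains and Hcst (DAP10), 6 of 7 were lower (median -2.04), but none reached 3 FPKM in WT, the chains of the T and B cell receptors included.

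The kinases that act on the ITAM divided. Of the Src and Tec family kinases and Zap70, 5 of 12 were lower (median -0.59). Lyn, abundant in blood cells, had 20.2 FPKM in WT against 4.09 FPKM in PU.1-/-. The widely expressed Src (14.7 and 14.8 FPKM), Fyn (13.2 and 14.0 FPKM) and Yes1 (12.8 and 15.1 FPKM) differed by less than 1.5-fold. The signal carriers after Syk also divided, with 8 of 20 lower. Bcl10 (57.0 and 62.3 FPKM), Prkcd (25.3 and 18.4 FPKM), Vav3 (20.6 and 18.1 FPKM) and Plcg1 (18.2 and 19.5 FPKM) were not called. Rac2, a GTPase of blood cells, had 17.7 FPKM in WT and was listed at 0 in PU.1-/-. Lcp2 (8.83 and 0.0999 FPKM) and Vav1 (4.26 FPKM and 0) were lower too. Blnk (6.38 and 5.02 FPKM) and Plcg2 (5.23 and 2.64 FPKM) were not called.

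The brakes of the pathway were as uneven. Of the ITIM receptors 9 of 16 were lower (median -3.22), among them Lilrb4a and Cd300lf, myeloid inhibitory receptors with 53.7 and 14.6 FPKM in WT that were listed at 0 in PU.1-/-. Sirpa, the receptor for the "do not eat me" protein CD47, had 30.1 and 16.5 FPKM and was not called, and neither was Pecam1, an endothelial adhesion molecule, at 65.3 and 78.7 FPKM. Of the phosphatases and brakes 6 of 12 were lower (median -1.57). Ptpn6 (SHP-1), the phosphatase of blood cells, had 21.0 and 3.31 FPKM, and the adaptor Dok2 had 13.9 and 0.125 FPKM. The widely expressed Ptpn11 (SHP-2) had 49.1 and 49.7 FPKM, and Inppl1 (SHIP2) had 11.8 and 13.7 FPKM. Of the ligands, 3 of 11 were listed, and antibody genes were not among them. Pglyrp1, a neutrophil granule protein that binds Trem1, had 37.6 FPKM in WT against 2.95 FPKM in PU.1-/-, whereas the Trem2 ligands Apoe (689 and 537 FPKM) and Clu (25.9 and 30.5 FPKM) were not called.

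Position on the chromosome was compared next, since Fcgr2b, Fcgr4, Fcgr3 and Fcer1g lie in one stretch of chromosome 1. The 3 nearest protein-coding genes on each side of every member were taken among those listed in these data under the same symbol. Genes listed under another symbol were therefore passed over. Of the neighbours, 28 had at least 1 FPKM in a library, of which 6 were lower and none higher, beside 4.45% lower over all genes of that level. With the neighbours under 1 FPKM, 10 of 46 were lower, beside 4.34% of all genes. Of the lower neighbours, Fcrlb, Hcst, Trem3, Treml2 and Treml4 were also counted in the pathway lists above. Adamts4, an extracellular protease gene near Fcer1g, had 21.4 FPKM in WT against 25.4 FPKM in PU.1-/-. Sdhc, a mitochondrial gene on the far side of Fcgr3, had 85.0 and 77.3 FPKM. The only neighbour called in this stretch was Fcrlb, another gene of the Fc receptor family, at 1.68 and 0.410 FPKM. On chromosome 7, Hcst, 129 bp from Tyrobp, had 2.84 FPKM in WT and was listed at 0 in PU.1-/-, and the next gene, Nfkbid, had 2.56 and 0.906 FPKM. The other lower neighbours were Trem3, Treml2 and B430306N03Rik (1.42 FPKM and 0) around Trem1 and Trem2 and, under 1 FPKM in both libraries, Treml4, A530064D06Rik, 9830107B12Rik and Diras2.

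**Figure D3:**
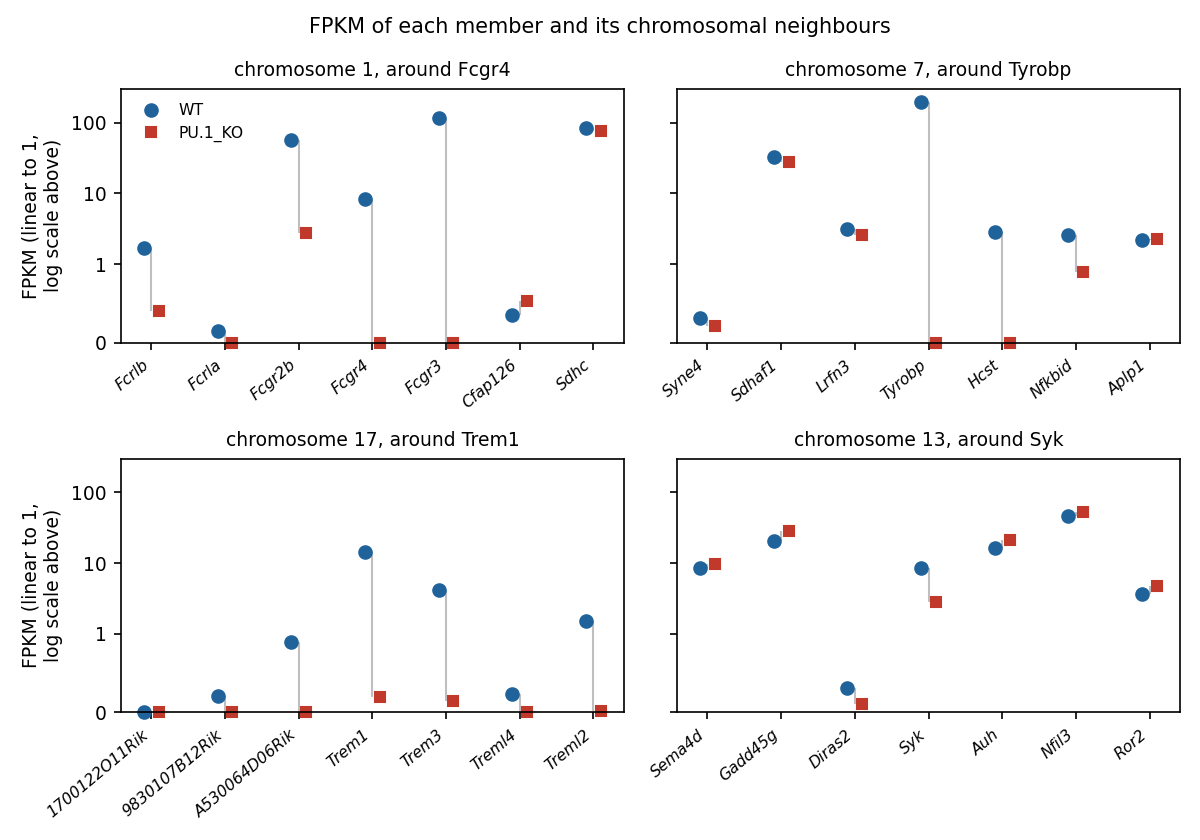
FPKM of each gene in the WT library (circles) and the PU.1-/- library (squares) around Fcgr4, Tyrobp, Trem1 and Syk, in chromosome order and not to distance, on an axis that is linear up to 1 FPKM and logarithmic above. The pair of points is far apart for Fcgr3 and close for its neighbour Sdhc, at 85.0 and 77.3 FPKM.

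PU.1 binds DNA at purine-rich sites with the core GAGGAA, so the promoters of the 10 genes were searched for these letters. RefSeq promoter windows (GRCm38.p6, from 250 bases before to 50 after a transcript start) were found for 9 of the 10 genes, without Tyrobp, in 11 windows. GAGGAA or its complement TTCCTC occurred in 7 of the 9 genes, beside 30.3% of 17191 measured genes with a window and 28.3% of all 32851 windows. The matches of Fcgr1, Fcgr4 and Trem2 began 55, 22 and 40 bases before the start, and those of Fcgr3 15 and 6 bases before its 2 listed starts, which lie inside the gene. Fcer1g, Fcgr2b and the first of the Syk starts had no match, while the other Syk start had one 9 bases before it, and those of Trem1 and Fcer1a began 162 and 216 bases before the start. A match describes these letters and is not a binding site, and its absence says only that the letters are not in the window. Up to 120 bases before the start are shown for promoters with a match close to the start and, for comparison, for Fcer1g, the abundant gene without one, 5′ to 3′ on the strand of the gene, with matches in capitals and without bases in annotated exons. The Syk match lies in an annotated exon and is therefore not shown. They lie at chr3:96293970-96294089 (Fcgr1, minus strand), chr1:171059404-171059523 (Fcgr3, minus strand), chr1:171018806-171018919 (Fcgr4, plus strand), chr17:48346281-48346400 (Trem2, plus strand) and chr1:171234366-171234469 (Fcer1g, minus strand).
Fcgr1: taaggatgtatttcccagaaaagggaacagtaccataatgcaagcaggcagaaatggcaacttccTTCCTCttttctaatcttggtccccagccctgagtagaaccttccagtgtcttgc
Fcgr3: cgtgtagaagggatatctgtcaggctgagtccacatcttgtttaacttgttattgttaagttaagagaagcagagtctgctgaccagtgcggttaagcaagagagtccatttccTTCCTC
Fcgr4: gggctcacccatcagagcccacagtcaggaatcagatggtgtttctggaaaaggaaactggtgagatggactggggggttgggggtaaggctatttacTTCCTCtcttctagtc
Trem2: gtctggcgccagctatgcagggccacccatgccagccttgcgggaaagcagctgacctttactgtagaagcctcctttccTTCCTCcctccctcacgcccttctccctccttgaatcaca
Fcer1g: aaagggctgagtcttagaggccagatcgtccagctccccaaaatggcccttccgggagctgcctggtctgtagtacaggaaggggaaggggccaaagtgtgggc
In Fcgr1, Fcgr3, Fcgr4 and Trem2 the match read TTCCTC, so the motif was on the other strand, as the plot of motif positions also shows.

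**Figure D4:**
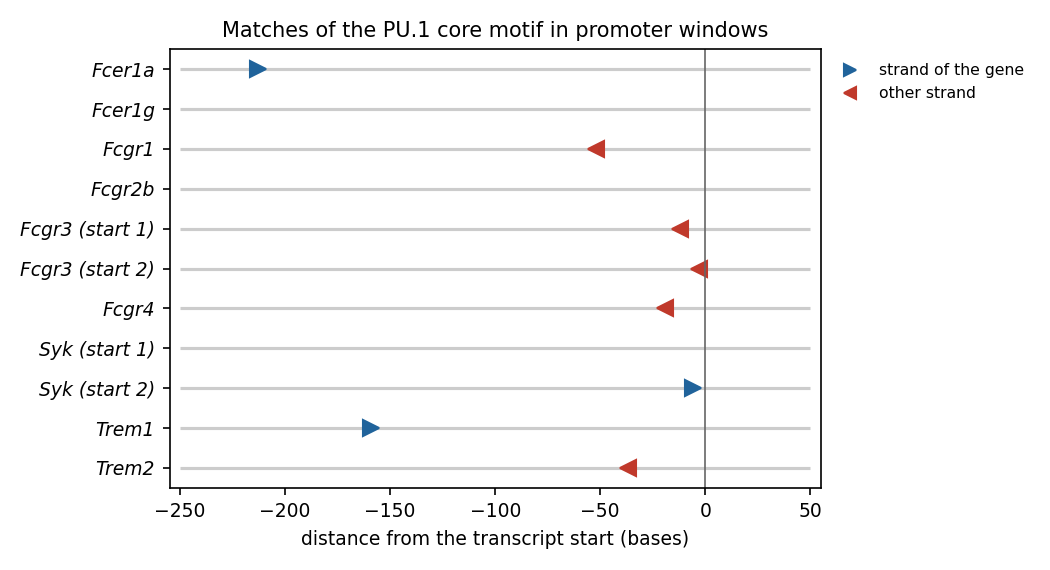
Positions of GAGGAA (right-pointing, on the strand of the gene) and TTCCTC (left-pointing, on the other strand) in the 11 promoter windows of 9 genes, as distance from the transcript start in bases. Windows without a symbol have no match, as for Fcer1g and Fcgr2b.

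Markers of several cell types moved with the 10 genes. All 10 macrophage markers were lower (Adgre1 11.6 FPKM and 0, Csf1r 15.0 and 0.684 FPKM), with a summed FPKM of 563 in WT and 6.50 in PU.1-/- and with Adgre1, C1qa, C1qb and C1qc listed at 0. Of 9 neutrophil markers 7 were lower (sums 678 and 31.3 FPKM), with Ngp, Ltf, Retnlg, Csf3r and Mmp8 at 0 and the granule protease gene Elane at 1.02 and 0.0887 FPKM. The antimicrobial peptide gene Camp, at 77.6 and 23.9 FPKM, was lower as well, while the chemokine receptor gene Cxcr2 (11.2 and 7.17 FPKM) and the granule enzyme gene Mpo (0.185 and 0.0805 FPKM) were not called, and Camp and Cxcr2 held most of the sum left in PU.1-/-. Both basophil markers were lower, Mcpt8 at 2.19 and 0.1004 FPKM and Prss34 at 1.22 and 0.0625 FPKM. The part of these cell types in the differences was not tested.

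Lymphocyte markers were low in both libraries. T cell markers summed to 5.32 FPKM in WT against 1.72 FPKM in PU.1-/- and 4 of 8 were lower, with Cd3e (0.412 FPKM in WT) and Cd3d (1.10 FPKM in WT) listed at 0 in PU.1-/-. B cell markers summed to 0.583 and 0.327 FPKM, with Ms4a1 at 0 in both, and NK cell markers to 3.48 and 0.0340 FPKM. Of 5 NK cell markers 2 were lower, the granule genes Gzma (2.06 FPKM in WT) and Nkg7 (1.20 FPKM in WT), which were listed at 0 in PU.1-/- like Ncr1 (0.0576 FPKM in WT) and Klrb1c (0.119 FPKM in WT). The Langerhans and dendritic cell list summed to 27.7 and 4.80 FPKM, with 4 of 9 lower and 1 higher and with its defining genes Cd207 and Flt3 at 0 in both. Of 6 platelet markers 1, the chemokine gene Ppbp, was lower (sums 81.5 and 9.78 FPKM), and Itga2b (3.19 and 3.83 FPKM) and Gp9 (0.362 and 0.420 FPKM) were not.

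Of genes that define skin, both libraries held the keratinocyte genes Krt5 (1216 and 1273 FPKM) and Krt14 (4659 and 5195 FPKM) and the fibroblast collagens Col1a1 (350 and 385 FPKM) and Col1a2 (373 and 406 FPKM). No keratinocyte, fibroblast or general marker was called, Actb (1010.4 and 662 FPKM) and Gapdh (1404 and 1541 FPKM) included. Skeletal muscle markers summed to 8760 FPKM in WT against 14907 FPKM in PU.1-/-, with 2 of 8 higher, and Acta1 was at 3224 and 5955 FPKM and Ckm at 674 and 1080.3 FPKM. The Y-linked genes Ddx3y (21.0 FPKM in WT) and Eif2s3y (38.5 FPKM in WT) were listed at 0 in PU.1-/-, and Xist was listed at 0 in WT. With 1 library per genotype, muscle content and sex cannot be told apart from genotype.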

How the data were processed

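Poly(A) RNA of 2 wound libraries was sequenced as 75-base single-end reads with a stranded kit. The authors deposited FPKM values per gene on mm10, normalised with Cuffnorm, and their processing notes name TopHat2 2.1.1, Bowtie2 2.2.8, SAMtools 0.1.18 and Cuffdiff 2.2.1. Neither the annotation nor any read filter is named in the sources used here. FPKM values are estimates in which reads shared by similar genes are divided by a model.

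The members and lists were chosen with earlier results of these data known. Every gene was compared between WT and PU.1-/- after raising values below 0.1 FPKM to 0.1, and a ratio of at least 2 was called lower or higher. With 1 library per genotype no test between genotypes was run. The WT depth was estimated from the steps between FPKM values of low genes (78.7% of 927 WT values came out whole within 0.1 read). The PU.1-/- depth was the WT depth times 1.1486, the commonest ratio of WT over PU.1-/- among low genes. That ratio was shared by 435 of 4542 genes above 0 in both libraries and below 2 FPKM in WT. A step estimate for PU.1-/-, at which 80.2% of 979 values came out whole, was not used. Reads were estimated from FPKM, depth and the longest transcript less 200 nt. Exact 95% intervals (Poisson for levels, Clopper-Pearson binomial for ratios and shares) cover counting error only, and the upper limit for a value of 0 was set at 3 reads.

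Genes were named by rule: Spi1, the 10 members, up to 4 genes per pathway list with at least 10 FPKM in a library and the highest WT level, the first 2 genes of each marker list, and the 2 nearest genes of Fcer1g, Tyrobp and Syk. A gene that the rule names is not reported here. Ms4a2, Rac2, Lcp2, Vav1, Blnk, Plcg2, Trem3, Treml2, Ppbp, Camp, Cxcr2, Kit, Hdc, Xist, chromosomal neighbours and markers listed at 0 were named after their values were seen. The limit of 3 FPKM in WT was also set then. Sequences came from GENCODE M21 and RefSeq. The steps ran in Python 3.11.15 with numpy 2.4.6, pandas 2.3.3, scipy 1.17.1 and matplotlib 3.10.9. The code for the calls was run on simulated counts with 4-fold changes in genes of many reads. Those counts held no spread between animals and no change near the threshold, so they do not show how reliable the calls are. Alternatives were the floor, a pseudocount, a low-value filter, the fold and the scaling.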

Additional observations from a re-analysis of the deposited data

How the results depend on the processing

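All 10 genes remained lower under every alternative floor, pseudocount, filter and scaling tried, and 9 were lower at a 4-fold threshold, without Syk. All 70 alternative log2 ratios of single genes were below -1, but part of them could not move. A filter on level leaves the ratio of each of the 10 genes as it was. Scaling does the same for a gene listed at 0 in PU.1-/-. Both floors left the ratios of Fcgr2b and Syk as they were, and the floor of 0.01 FPKM also left those of Fcer1g and Trem1. Only the pseudocount changed the ratios of all 10 genes. The median over the 10 genes was -6.29, -3.82 with a floor of 1 FPKM, -8.73 with a floor of 0.01 FPKM and -3.78 with a pseudocount of 1. The number of lower pathway genes was 54, and 34 with a floor of 1 FPKM and 27 among genes of at least 3 FPKM in WT, a limit added after seeing the data. The number of lower genes overall was 1057. It was 463 with a floor of 1 FPKM, 1778 with a floor of 0.01 FPKM, 461 with a pseudocount of 1, 589 for genes of at least 1 FPKM in either library, 1867 at 1.5-fold, 533 at 4-fold and 396 for genes of at least 3 FPKM in WT. These follow from how many low genes each setting counts or from the threshold itself. The share of Fcgr2b in the Fc gamma receptor FPKM of WT was 29.5%, and 31.8% without Fcgr1, whose FPKM then leaves the sum. No paired analysis was possible because each genotype has 1 library. The ratios of Fcer1g and Trem1 rest on about 6 and 9 reads in PU.1-/-, and for a gene listed at 0 an expected count of up to 3 reads was allowed.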
